A study of Mus musculus with 3 samples.

Results

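Sorted nephron progenitor cells in which no Six2 transcript was counted are described here. They were chosen by measured counts: a cell needed at least 1000 detected genes, at most 10% mitochondrial transcripts and at least 12000 unique molecular identifiers (UMIs, each standing for 1 captured RNA molecule), and 0 UMIs of Six2 and of 7 further genes. The 7 were Wnt4 and Lhx1, made in progenitors that commit to form a nephron, Col1a1 and Col3a1, collagens of stromal cells, and Ptprc, Tyrobp and Fcer1g, made in blood-derived immune cells. In all, 663 of 7924 barcodes met the rule. They were compared with 2823 cells that passed the same gate with 0 UMIs of the same 7 genes but had 2 or more UMIs of Six2.

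The cells came from kidneys of mouse embryos of the Six2GFP+ strain at E14.5 (embryonic day), pooled over several litters into 3 tubes. Cells were sorted for green fluorescent protein made under the control of Six2, for exclusion of propidium iodide, which stains dead cells, and for a size that leaves out debris and doublets. The tubes were run side by side on a 10x Chromium chip with version 2 chemistry, and all 3 samples form a single group with no other genotype, treatment or age. The libraries are named 1, 2 and 3 after the barcode suffix, since the labels do not tie the tubes to the suffixes.

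Six2 encodes a homeodomain transcription factor that keeps the cap mesenchyme, the progenitor pool of the nephron, in a self-renewing state, and its transcript declines as progenitors commit to become epithelium. Green fluorescent protein is long-lived, so a reporter for Six2 can mark a cell after the gene's own transcript has dropped. Whether sorted cells without a Six2 count still carry the other transcripts of the progenitor state is the question the comparison addresses. The transcript of the reporter itself was not analysed here.

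The 3 libraries held 3030, 2768 and 2126 barcodes with 50925200, 35310800 and 35876600 UMIs. Of all barcodes, 7898 passed the limits on genes and mitochondrial transcripts, 5625 also had 12000 UMIs, and 4575 of those had none of the 7 further genes. Members of the groups compared came from the same tubes, so differences were taken within a library. The p-values set those differences against their spread over 3 tubes, which may be technical. That spread is estimated in part from all genes together, so a very small p-value does not measure the spread of that gene alone. The 16 bases of 44 barcodes occurred in more than 1 library, among them 8 cells without Six2 and 11 cells with 2 or more.

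Six2 lies on chromosome 17 from 85684277 to 85688274 on the minus strand (mm10). Of the 4575 gated cells, 663 had no Six2 UMI, 1089 (23.8%) had 1, 39.8% had 2 or 3 and 21.9% had 4 or more. By library, the share without Six2 was 17.6% in library 1 (350 of 1984 cells, exact 95% binomial interval 15.99 to 19.4), 12.2% in library 2 (132 of 1086, 10.3 to 14.2) and 12.03% in library 3 (181 of 1505, 10.4 to 13.8), with a mean of 13.9% ± 3.21 (SD, n = 3). Intervals cover counting error only. Library 1, with the largest share, had the lowest Six2 level over all its gated cells, 115 CPM (UMIs of a gene scaled to 1000000 UMIs in all), against 167 CPM in library 2 and 137 CPM in library 3.

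The share was lower at each deeper step of UMIs per cell in every library. In library 1 it was 23.2% from 12000 to under 14000 UMIs, 19.7% from 14000 to under 16000, 17.4% from 16000 to under 20000 and 11.97% at 20000 or more. In library 2 the same steps gave 17.0%, 15.0%, 6.69% and 2.22%, and in library 3 they gave 17.9%, 12.8%, 12.3% and 5.62%. A count of 0 in a single cell therefore carries a wide limit: 3 UMIs correspond to 250.0 CPM in a cell of 12000 UMIs, to 197 CPM in the median cell without Six2 (15254 UMIs) and to 82.0 CPM in the deepest (36587 UMIs). The Six2 level over all gated cells, 115, 167 and 137 CPM in libraries 1, 2 and 3, lies below the limit of the median cell. Absence of Six2 could not be shown for such a cell at this depth.

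**Figure D1:**
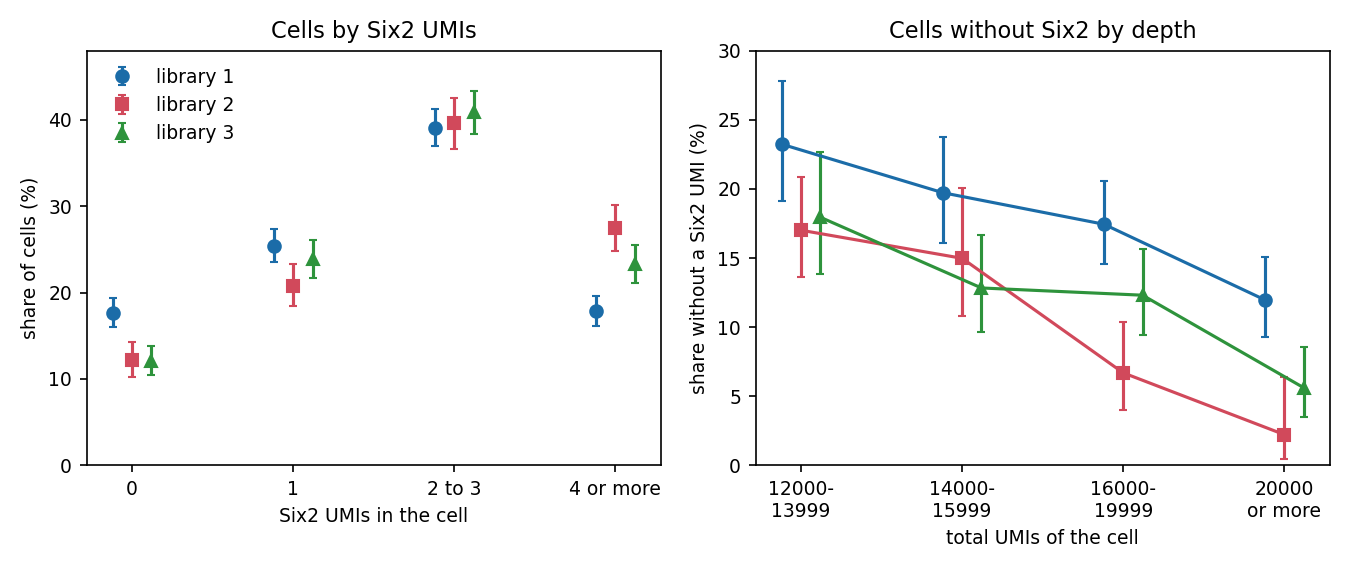
Left, share of gated cells in percent by the number of Six2 UMIs in the cell, for each library. Right, share of gated cells without a Six2 UMI in percent by the total UMIs of the cell. Points are libraries and bars are exact 95% binomial intervals; the share without Six2 ran from 23.2% to 11.97% with depth in library 1 and from 17.0% to 2.22% in library 2.

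Just inside the depth limit, 61 cells without Six2 lay less than 500 UMIs above it, and just outside, 55 cells that otherwise met the rule lay at most 500 UMIs below it. A further 206 gated cells without Six2 were left out because they held another gene of the rule, most often Wnt4 (83 cells) or Col1a1 (82 cells), and less often Col3a1 (34), Lhx1 (28), Fcer1g (20), Tyrobp (18) or Ptprc (12). Cells without Six2 were shallower than their comparison cells, with median UMIs of 15967.5, 13767.5 and 15565 in libraries 1, 2 and 3, against 17552, 15470 and 16740 in cells with 2 or more Six2 UMIs. The rule itself favours this gap, because a deeper cell has more chances to show Six2. After every cell was thinned at random to 12000 UMIs, median detected genes were close, at 3499, 3878 and 3624 in cells without Six2.

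Some Six2 UMIs can come from free RNA in the droplets. Among 73 cells with at least 2 of Ptprc, Tyrobp and Fcer1g, which should lack Six2, 4 (5.48%, exact 95% binomial interval 1.51 to 13.4) held a Six2 UMI, at a median of 9649 UMIs per cell. All 4 were among the 17 such cells with at least 12000 UMIs, whose median was 14465.

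Six2 was then measured in UMIs that had not chosen the cells. The UMIs of each cell were divided at random into a sorting part and a reading part of 50% each, cells were grouped by Six2 in the sorting part, and Six2 was counted in the reading part. In the reading part, the 1561 cells with no Six2 in the sorting part had 97.4, 145 and 117 CPM of Six2 in libraries 1, 2 and 3, and the 1441 cells with 2 or more in the sorting part had 136, 189 and 153 CPM. In each library the level was lower in cells with no Six2 in the sorting part, although the ranges over libraries overlapped. The means were 120 ± 24.0 CPM in cells with no Six2 in the sorting part and 159 ± 27.0 CPM in cells with 2 or more (SD, n = 3 libraries), a ratio of 75.1%. The log2 fold change was −0.42 ± 0.05 (SE), with an adjusted p of 8.94e-13 by edgeR's quasi-likelihood test with the library as a block. When the comparison cells were matched on total UMIs, an alternative added after seeing the data, the log2 fold change was −0.51 ± 0.07 (adjusted p = 2.82e-11). On the unmatched sums the DESeq2 Wald test gave −0.42 ± 0.09 (SE, adjusted p = 0.000947).

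Among cells with no Six2 in the sorting part, 898 of 1561 (57.5%) held Six2 in the reading part, at a median of 7765 UMIs in that part. Among cells with 2 or more, 1015 of 1441 (70.4%) did, at a median of 8683 UMIs. Both shares lay above the 5.48% seen in all 73 immune cells at a median of 9649 UMIs. Those 73 cells were not held to the minimum of 12000 UMIs per cell. Among the 17 immune cells that met it, 4 held Six2, at a median of 14465 UMIs. With so few cells, the share of Six2 from free RNA at this depth is known only roughly. The 663 cells with Six2 in neither part are those described here, and for them no further UMIs remain in which Six2 could be counted.

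**Figure D2:**
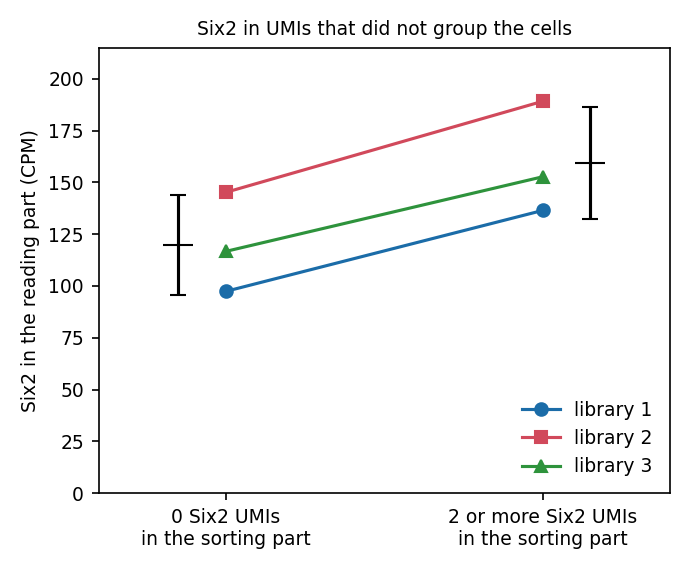
Six2 level in CPM in the reading part of the UMIs of each cell, for cells with no Six2 and with 2 or more Six2 UMIs in the sorting part. Points are libraries joined by lines, and the bars beside them are mean ± SD. The level was 97.4 to 145 CPM in cells with no Six2 in the sorting part. It was 136 to 189 CPM in cells with 2 or more Six2 UMIs in that part.

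Cells without Six2 carried most other markers of uncommitted progenitors. The markers were Cited1, a transcriptional co-regulator of the self-renewing cap mesenchyme, Meox1, a homeobox factor, Eya1, a co-activator that acts with Six2 and its relatives, Crym, a thyroid hormone binding protein, Osr1, a zinc finger factor of the early kidney mesenchyme, Traf1, an adaptor of tumour necrosis factor receptors, and Rspo1, a secreted enhancer of Wnt signalling. At least 4 of these 7 were detected in 624 of 663 cells without Six2 (94.1%), against 2751 of 2823 cells with 2 or more Six2 UMIs (97.4%). The mean number per cell was 5.33, 5.38 and 5.39 in cells without Six2 in libraries 1, 2 and 3, against 5.58, 5.72 and 5.64 in cells with 2 or more. In the immune cells the mean was 0.548.

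The number of markers was lower in cells without Six2 in 3 of 3 libraries, by a mean of −0.28 ± 0.05 markers per cell (SD, n = 3), between means of 5.37 ± 0.04 in cells without Six2 and 5.65 ± 0.07 in cells with 2 or more. Against comparison cells matched on total UMIs the difference was −0.24 ± 0.06, and with every cell thinned to 12000 UMIs it was −0.17 ± 0.04, between 5.02 in cells without Six2 and 5.19 in cells with 2 or more. No test is given, since an exact paired permutation test over 3 libraries cannot go below p = 0.25. All 7 markers were present together in 103 cells without Six2 (15.5%), against 591 cells with 2 or more (20.9%). The lower end held few cells, with 2 or fewer markers in 6 cells without Six2 (0.905%), against 13 cells with 2 or more (0.461%).

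**Figure D3:**
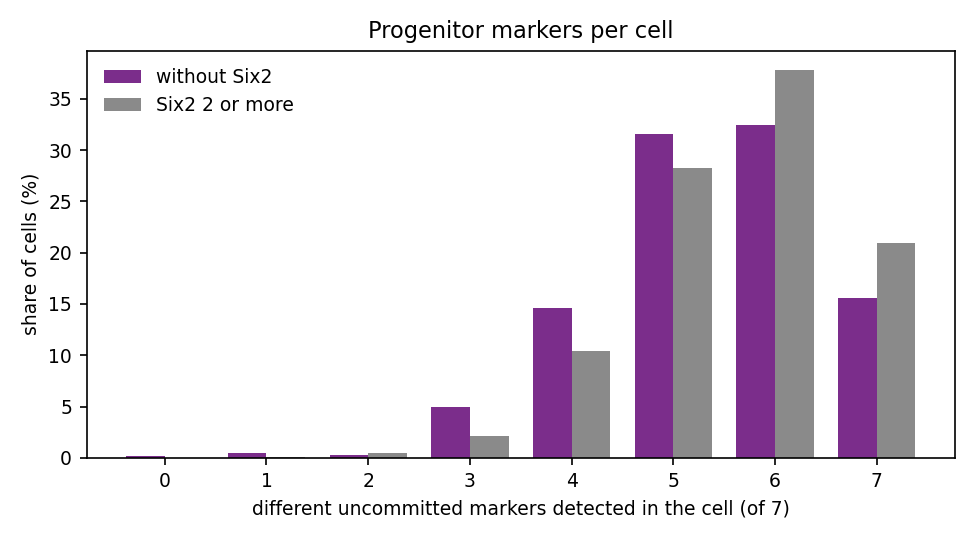
Share of cells in percent by how many of the 7 uncommitted progenitor markers other than Six2 were detected, for 663 cells without Six2 and 2823 cells with 2 or more Six2 UMIs, all libraries together. Cells without Six2 peaked at 6 markers (32.4%) and 5 markers (31.5%), and cells with 2 or more at 6 markers (37.8%).

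Marker levels in the summed UMIs held no call against all cells with 2 or more Six2 UMIs, and the size of the difference moved with the comparison cells. The median log2 fold change of the 7 markers, written throughout as cells without Six2 over cells with 2 or more, was −0.04 against all such cells, −0.14 and −0.11 in 2 random draws of cells matched on total UMIs, and −0.15 without cells holding a UMI of Top2a, Ube2c, Cdk1, Ccnb1 or Mki67, genes of cell division, where Crym was lower (−0.32). The 7 markers made up 0.117%, 0.1502% and 0.134% of UMIs in cells without Six2 in libraries 1, 2 and 3, against 0.125%, 0.168% and 0.141% in matched cells and 0.117%, 0.158% and 0.133% in all cells with 2 or more. The share was lower than in matched cells in 3 of 3 libraries. Cited1 was at 151, 189 and 168 CPM in cells without Six2 in libraries 1, 2 and 3, against 151, 190 and 193 CPM in cells with 2 or more Six2 UMIs. The ranges overlapped, and the log2 fold change was −0.07 ± 0.05 (SE), with an adjusted p of 0.666 by edgeR's quasi-likelihood test. Eya1, the partner of Six2, was at 202, 331 and 225 CPM in cells without Six2, against 211, 341 and 232 CPM in cells with 2 or more, a log2 fold change of −0.05 ± 0.04 (adjusted p = 0.688). For Eya1 the order of the libraries was the same in both kinds of cell, and the libraries lay farther apart than the kinds of cell did within any library.

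By edgeR, 0 of the 7 markers passed the threshold of an adjusted p under 0.05 and 0 had an unadjusted p under 0.05, and DESeq2 also called 0. Over all 11707 genes tested by edgeR, 225 (1.92%) passed and 1244 had an unadjusted p under 0.05. At that share a list of 7 genes would hold few calls or none, and the same shares stand beside every list below. In cells without Six2 the remaining means were 307 CPM of Crym, 254 CPM of Osr1, 226 CPM of Rspo1, 83.4 CPM of Meox1 and 44.5 CPM of Traf1. In cells with 2 or more Six2 UMIs they were 304 CPM of Crym, 265 CPM of Osr1, 218 CPM of Rspo1, 84.6 CPM of Meox1 and 46.5 CPM of Traf1. With every cell thinned to 12000 UMIs before grouping, which puts more cells in the group without Six2, Crym was lower by a log2 fold change of −0.16 (adjusted p = 0.00241) and Osr1 by −0.14 (adjusted p = 0.0366). The cells in which a marker was detected, after thinning, were 59.7% for Cited1, 89.0% for Eya1, 88.2% for Crym, 84.0% for Osr1, 88.8% for Rspo1, 50.5% for Meox1 and 35.1% for Traf1 in cells without Six2. The unthinned shares in cells without Six2 were 64.4% for Cited1, 93.5% for Eya1, 93.2% for Crym, 88.4% for Osr1, 95.3% for Rspo1, 57.0% for Meox1 and 43.6% for Traf1. In the immune cells, whose UMIs are fewer, the same markers were detected in 1.37% (Meox1) to 13.7% (Rspo1) of cells.

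**Figure D4:**
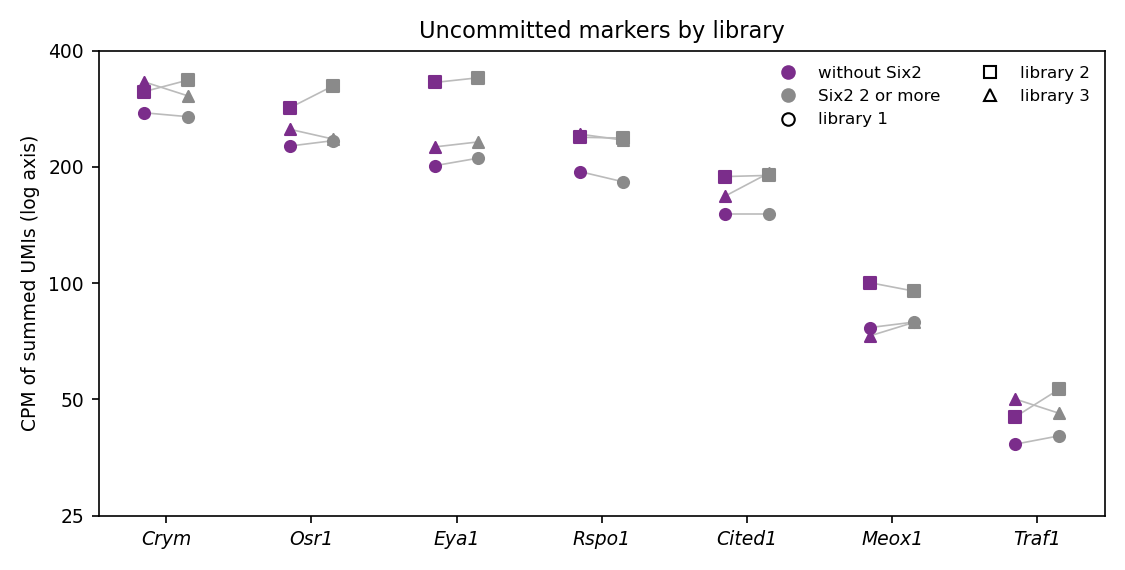
Level of 7 uncommitted progenitor markers in CPM of summed UMIs (log axis), by library, in cells without Six2 and in cells with 2 or more Six2 UMIs. Each point is the sum over the cells of 1 library and lines join the same library; the points of both kinds of cell overlap for every marker.

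A wider list of progenitor regulators, which includes Cited1, Meox1 and Osr1, also held no call. Of 25 listed regulators, 0 passed by edgeR (6 at an unadjusted p under 0.05) and 0 by DESeq2, beside 225 passing (1.92%) and 1244 at an unadjusted p under 0.05 over all 11707 genes tested by edgeR. Of the 25, 6 had a positive log2 fold change and the median was −0.07, beside a median of 0.01 over all genes. Wt1, a zinc finger factor needed for kidney development, was at 334, 351 and 341 CPM in cells without Six2, against 300, 382 and 318 CPM in cells with 2 or more (log2 fold change 0.07 ± 0.04, adjusted p = 0.546), and was detected in 98.5% of cells without Six2. Sall1, a zinc finger factor of the cap mesenchyme, averaged 82.4 CPM in cells without Six2 and 92.5 CPM in cells with 2 or more (log2 fold change −0.16 ± 0.06, adjusted p = 0.209). With every cell thinned, Gas1, a membrane protein that binds growth factors, was lower by −0.10 (adjusted p = 0.0222).

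The family of Six2 and its partners held no call in either direction. Of the listed relatives of Six2, Eya1 and Dach1, 8 could be tested and 0 passed by edgeR (1 at an unadjusted p under 0.05) or by DESeq2. At the 1.92% called over all genes, a list of 8 would hold few calls or none. Six4, a relative of Six2, averaged 10.4 CPM in cells without Six2 and 9.17 CPM in cells with 2 or more (log2 fold change 0.12 ± 0.17, adjusted p = 0.877). Eya3, a relative of Eya1, averaged 13.9 CPM in cells without Six2 and 17.3 CPM in cells with 2 or more (log2 fold change −0.35 ± 0.13, adjusted p = 0.248).

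Markers of other cell types were checked next, because a sorted cell without Six2 might be of another kind. Several listed markers are also found in progenitors, such as Des, the muscle intermediate filament, at 357 CPM, Hoxb7, a homeobox gene of the ureteric bud, at 58.9 CPM, and Elavl4, a neuronal RNA-binding protein, at 50.4 CPM in cells without Six2. Markers that reached 5 CPM in cells with 2 or more Six2 UMIs were therefore left out, a step chosen after seeing values. At least 2 of the remaining markers were held by 6 cells for mural and muscle cells, 4 for tubules, 2 for immune cells, 1 for stroma and 1 for endothelium among the 663 cells without Six2. Among the 2823 cells with 2 or more Six2 UMIs the counts were 18 for mural and muscle cells, 8 for tubules, 4 for immune cells, 12 for stroma and 1 for endothelium. No cell without Six2 held 2 such markers of ureteric epithelium, podocytes, erythroid or neural cells, and none had over 1% haemoglobin UMIs. The groups differ in size. As shares, the tubule counts were 0.603% against 0.283% and the immune counts 0.302% against 0.142%. Mural and muscle cells and endothelium also had the higher share without Six2, and stroma the lower. The rule took cells with Col1a1, Col3a1, Ptprc, Tyrobp or Fcer1g out of both groups, so low stromal and immune counts are in part set by it. Defining markers at 0 UMIs over all 663 cells included Gata3, Wnt11, Wnt7b and Wnt9b of ureteric epithelium, Hnf4a, Slc34a1, Slc12a1 and Cubn of tubules, Sox10 of neural cells and Myh11 of smooth muscle.

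Of the 6 cells without Six2 that had 2 or fewer progenitor markers, 5 held 2 to 14 UMIs of Wt1. Among these 5, the cell in library 1 (12045 UMIs) held 2 UMIs of Wt1, 1 progenitor marker and no UMI of Hoxd11 or Pax2. It also held 1 stromal and 1 mural or muscle marker, and its identity is uncertain. The rest of the 5 held both Hoxd11 and Pax2. The cell without Wt1, in library 3 with 17721 UMIs, held 0 of the 7 progenitor markers. It had no UMI of Pax2, Sall1 or Hoxd11 either, and it goes against the label of nephron progenitor. It held 8 of 9 endothelial markers with 81 UMIs: 20 of Pecam1, an adhesion molecule of vessel walls, 13 of Emcn, 12 of Egfl7, 12 of Esam, 10 of Plvap, 7 of Cdh5, 6 of Kdr and 1 of Tie1. The endothelial level of its library moved with this cell. The summed endothelial markers stood at 50.8 CPM in library 3 cells without Six2, and at 23.1 CPM without it. In library 3 cells with 2 or more Six2 UMIs they stood at 31.9 CPM, with no cell taken out. Over all libraries, 1 cell with 2 or more Six2 UMIs held 3 or more endothelial markers, and it held 7.

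Across all genes, 225 of 11707 tested (1.92%) passed an adjusted p of 0.05 by edgeR's quasi-likelihood test, with 41 higher (0.35%) and 184 lower (1.57%) in cells without Six2. The 8 genes of the rule were left out of this fit. Genes of cell division made up the most conspicuous block: of 52 listed genes of the G2 and M phases, 46 were lower, 0 were higher and the median log2 fold change was −0.49, beside 0.01 over all genes. The G2 and M list and the S phase list together held 58 of the 184 lower genes. The counts moved with the libraries and with the comparison cells. Without library 1 they were 130 in all with 16 higher and 114 lower. There were 25 higher without library 2 and 21 higher without library 3. Against comparison cells matched on total UMIs 2 of 11040 genes passed, Id1 higher and Ube2c lower. DESeq2 called 85 genes, and edgeR without the library block called 0, with 356 at an unadjusted p under 0.05.

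Top2a, the topoisomerase that untangles chromosomes before division, was at 142, 219 and 97.8 CPM in cells without Six2 in libraries 1, 2 and 3, against 262, 416 and 253 CPM in cells with 2 or more Six2 UMIs. Its ranges did not overlap, and its log2 fold change was −1.01 ± 0.06 (SE, adjusted p = 6.35e-12). Ube2c, the ubiquitin-conjugating enzyme that works with the anaphase-promoting complex, was at 135, 131 and 83.4 CPM without Six2, against 228, 369 and 223 CPM with 2 or more, a log2 fold change of −1.11 ± 0.08 (adjusted p = 9.38e-10). Cdk1, the kinase that drives entry into mitosis, was at 84.4, 119 and 63.8 CPM without Six2, against 126, 260 and 136 CPM with 2 or more (log2 fold change −0.86 ± 0.07, adjusted p = 6.40e-09). Each of the 3 genes was lower in every library without Six2, and all 3 passed whichever library was left out.

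Over cells with 0, 1, 2 to 3 and 4 or more Six2 UMIs, Top2a averaged 153, 207, 263 and 384 CPM, and Ube2c averaged 116, 161, 214 and 364 CPM. After thinning to 12000 UMIs, Top2a was detected in 38.6%, 40.8%, 47.0% and 58.0% of cells of these classes. Other genes with the largest decreases were Fam83d (log2 fold change −1.39), Prc1 (−1.14), Ccnf (−1.10), Nusap1 (−1.09), Aurka (−1.07), Kpna2, Incenp and Plk1 (each −1.0). Prc1, Nusap1, Aurka, Incenp and Plk1 encode spindle and mitotic kinase proteins, and Ccnf encodes cyclin F. Hspa1a, a heat shock gene with a near-identical copy that can share its reads, was also in this set (−1.04). It was at 3.57, 28.1 and 3.77 CPM in cells without Six2 in libraries 1, 2 and 3. In cells with 2 or more it was at 5.32, 48.3 and 17.8 CPM. It is uncertain both for the shared reads and for this wide spread over libraries.

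The decrease of the division genes was smaller against comparison cells matched on total UMIs. Matching also lowered the share of comparison cells that held division transcripts, given below. Depth and division cannot be told apart in this comparison. The list of G2 and M genes took 0.495%, 0.641% and 0.415% of UMIs in cells without Six2 in libraries 1, 2 and 3, against 0.619%, 0.893% and 0.6005% in all cells with 2 or more Six2 UMIs. In 1378 of these comparison cells, drawn to match the total UMIs of the cells without Six2, the shares were 0.507%, 0.606% and 0.459%, which overlap those of the cells without Six2. Of the 52 genes, 33 passed as lower without library 1, 33 without library 2, 37 without library 3 and 29 by DESeq2. Against matched cells, 1 was lower by edgeR and the median log2 fold change was −0.06. Ube2c was that gene, with a log2 fold change of −0.35 ± 0.06 (adjusted p = 0.0135), and Top2a was at −0.28 ± 0.06 (adjusted p = 0.0917). A repeat with another random draw, added after seeing the data, gave −0.42 for Ube2c (adjusted p = 0.000230) and −0.31 for Top2a (adjusted p = 0.00162). With all cells thinned and grouped anew on the thinned counts, 2 were lower, 1 was higher and the median was −0.01. That grouping put 594, 185 and 332 cells of libraries 1, 2 and 3 in the group without Six2, so they are not the same cells.

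Cells holding a UMI of Top2a, Ube2c, Cdk1, Ccnb1 or Mki67 made up 77.1%, 83.3% and 67.4% of cells without Six2, against 77.3%, 79.7% and 71.1% of matched cells and 81.7%, 87.8% and 78.1% of all cells with 2 or more Six2 UMIs. A lower share of dividing cells and a lower level of these transcripts per dividing cell cannot be told apart in the summed UMIs.

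**Figure D5:**
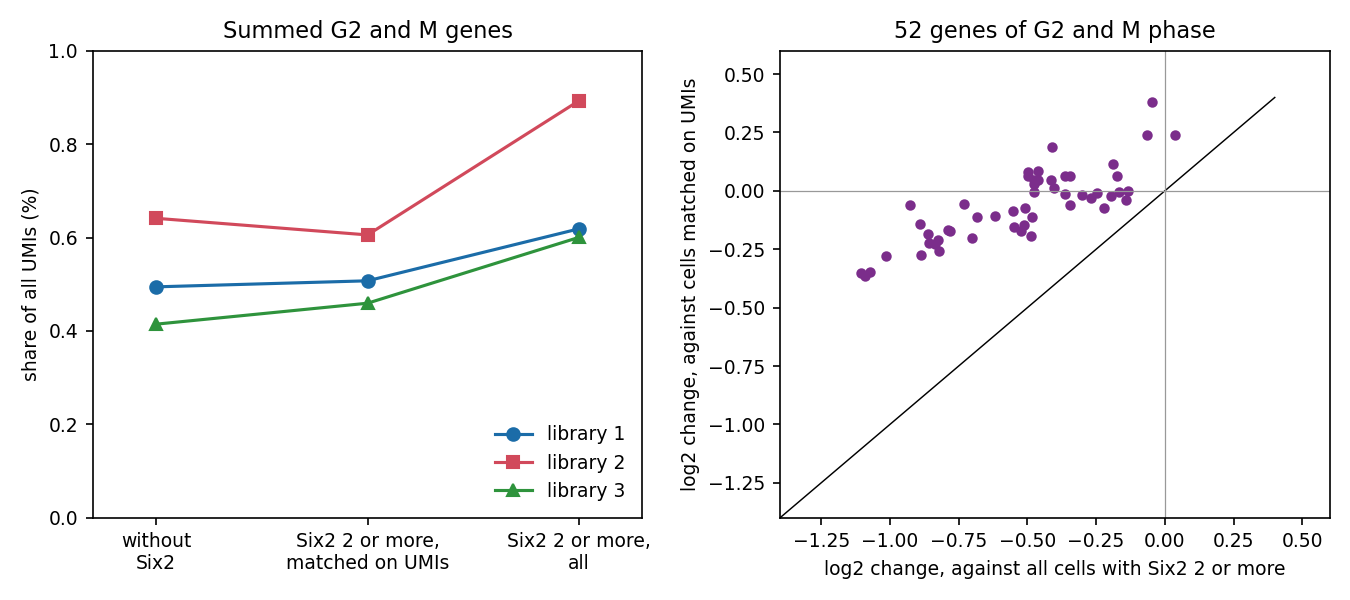
Left, share of all UMIs in percent taken by the listed G2 and M genes, by library, in cells without Six2, in comparison cells matched on total UMIs and in all cells with 2 or more Six2 UMIs. Right, log2 fold change of each of the 52 genes (cells without Six2 over comparison cells) against all comparison cells (x axis) and against matched ones (y axis), with the line of equal values; the median was −0.49 on the x axis and −0.06 on the y axis.

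Genes of the S phase, in which DNA is copied, changed less and not in a stable direction. Of 42 tested, 12 were lower and 0 higher, with a median log2 fold change of −0.15, beside 1.57% lower and 0.35% higher over all genes tested. The lower ones numbered 6 without library 1, 12 without library 2, 4 without library 3 and 1 by DESeq2. Rrm2, a subunit of ribonucleotide reductase, averaged 288 CPM in cells without Six2 and 363 CPM in cells with 2 or more Six2 UMIs (log2 fold change −0.36 ± 0.05, adjusted p = 3.19e-05), and Tyms, thymidylate synthase, averaged 220 CPM in cells without Six2 and 259 CPM in cells with 2 or more (−0.25 ± 0.04, adjusted p = 0.000516). With every cell thinned to 12000 UMIs and regrouped by thinned Six2, and the 7 further genes judged before thinning, the direction turned. In this alternative, added after seeing the data, Rrm2 stood at 0.21 (edgeR, adjusted p = 9.61e-06) and Tyms at 0.15 (adjusted p = 0.0315). The median of the list was 0.04 against matched cells and 0.09 with all cells thinned.

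Id1, an inhibitor of basic helix-loop-helix factors that is a target of bone morphogenetic protein signalling, was higher in cells without Six2. It was at 86.6, 111 and 90.2 CPM in cells without Six2 in libraries 1, 2 and 3, against 67.3, 92.1 and 79.7 CPM in cells with 2 or more Six2 UMIs. It was higher in 3 of 3 libraries although the ranges overlapped, with a log2 fold change of 0.28 ± 0.06 (SE, adjusted p = 0.00407). Against matched cells Id1 was the only gene that was higher, with a log2 fold change of 0.42 ± 0.06 (adjusted p = 0.00115), and with another draw of matched cells it was at 0.30 ± 0.06 (adjusted p = 0.0348). Its call was lost with DESeq2 (0.27, adjusted p = 0.215), without library 1 (0.22, adjusted p = 0.275), without cells that held 2 or more markers of another type (0.17, adjusted p = 0.319) and without cells that held division transcripts (0.46, adjusted p = 0.362). The log2 fold change lay above 0 in each of the 19 alternatives, with adjusted p between 1.23e-05 and 0.999953, the highest without the library block.

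Other members of the same response did not pass beside Id1. Of 12 tested genes of the bone morphogenetic protein and transforming growth factor beta response, 1 was higher and 0 were lower, with 10 positive values and a median of 0.08. Id2, a relative of Id1, averaged 250 CPM without Six2 and 239 CPM with 2 or more (log2 fold change 0.10 ± 0.04, adjusted p = 0.398). With all cells thinned and the 7 further genes judged before thinning, 3 of the 12 were higher, Id1 at 0.34, Id2 at 0.16 (adjusted p = 0.0173) and Bambi, a decoy receptor that dampens the same signals, at 0.66 (adjusted p = 0.0194).

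Igfbp5, a binding protein of insulin-like growth factors, was at 99.1, 106 and 98.5 CPM in cells without Six2 and at 79.5, 84.3 and 75.9 CPM in cells with 2 or more Six2 UMIs. Its ranges did not overlap, and its log2 fold change was 0.34 ± 0.05 (SE, adjusted p = 0.000245). Against matched cells it was at 0.26 ± 0.06 (adjusted p = 0.0917) in the first draw and 0.33 ± 0.06 (adjusted p = 0.00298) in the other. Plk2, a polo-like kinase, was at 55.8, 62.1 and 63.5 CPM without Six2 and 41.7, 47.95 and 48.1 CPM with 2 or more (0.40 ± 0.07, adjusted p = 0.000542), also with no overlap, and against matched cells it was at 0.28 ± 0.07 (adjusted p = 0.252). With every cell thinned to 12000 UMIs, Igfbp5 was at 0.17 (adjusted p = 0.213) and Plk2 at 0.06 (adjusted p = 0.948). Against all cells with 2 or more, Igfbp5 and Plk2 passed whichever library was left out.

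The largest increase by fold was that of Klf2, a Krüppel-like factor induced in many cells by flow and stress, at 5.79, 12.7 and 19.6 CPM without Six2 and 4.48, 4.34 and 9.71 CPM with 2 or more (log2 fold change 0.90 ± 0.19, adjusted p = 0.00740). Its level in cells without Six2 spread widely over the libraries, and it missed the threshold without library 2 (adjusted p = 0.0967) or library 3 (0.0983). The library 3 cell with endothelial markers held 28 of the 57 Klf2 UMIs of that library's cells without Six2, and the level there was 10.01 CPM without this cell. Klf2 did not pass without cells holding 2 or more markers of another type (0.61, adjusted p = 0.326), with every cell thinned (0.51, adjusted p = 0.434), or against matched cells (0.96, adjusted p = 0.0917, and 0.78, adjusted p = 0.177).

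Further genes with the largest increases were Dbp, a circadian transcription factor (0.54), Fcgrt, the neonatal antibody receptor (0.47), Ctsf, a lysosomal protease (0.43), Galt, an enzyme of galactose use (0.41), Hist1h2bc, a histone gene whose family members are close copies (0.39), Gpx3, a secreted glutathione peroxidase (0.34) and Mxd4, a repressor that opposes Myc (0.28). None of these 7 passed by edgeR in either draw of matched cells or with every cell thinned. Against the first draw Dbp was at 0.45 (adjusted p = 0.218), Fcgrt at 0.35, Galt at 0.32, Ctsf at 0.26, Hist1h2bc and Gpx3 at 0.15 each, and Mxd4 at 0.02. From 16000 UMIs Hist1h2bc was at 0.05. Against all cells with 2 or more, Hist1h2bc passed whichever library was left out, while Fcgrt, Ctsf and Gpx3 passed in none of the 3 such fits. Galt passed without library 3 only (adjusted p = 0.0117), Dbp missed the threshold without library 2 (0.0519) and Mxd4 without library 3 (0.0701).

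Genes of commitment held few calls, and these moved with the comparison. Bmper, a secreted regulator of bone morphogenetic proteins that marks committing progenitors, was higher in cells without Six2, at 32.5, 31.8 and 28.1 CPM, against 20.5, 29.2 and 23.9 CPM in cells with 2 or more Six2 UMIs (log2 fold change 0.42 ± 0.10, adjusted p = 0.0289). It was higher in 3 of 3 libraries with overlapping ranges, and it did not pass against matched cells (0.40 ± 0.11, adjusted p = 0.319) or without library 1 (adjusted p = 0.752). Of 13 commitment genes tested, Bmper and Id1 were higher and 0 were lower, 9 had positive values and 8 an unadjusted p under 0.05. Over all 11707 genes tested, 0.35% were higher and 1244 had an unadjusted p under 0.05. The median of the 13 is given next. Their median was 0.14, beside 0.01 over all genes tested, and 0.32 and 0.21 in the draws of matched cells, where 1 gene, Id1, passed. By DESeq2 or without library 1, 0 of the 13 passed. With every cell thinned, Id1 and Id2 were higher and Fgf8 was lower (−0.28, adjusted p = 0.0350), and in the reading part of the UMIs 3 were higher (Bmper, Id1 and Id2) and 2 lower (Fgf8 and Pax8). Tmem100, a membrane protein of committing cells, averaged 9.11 CPM without Six2 and 6.53 CPM with 2 or more (0.46 ± 0.18, adjusted p = 0.288). Pax8, a paired-box factor of the forming nephron, averaged 30.2 CPM without Six2 and 35.4 CPM with 2 or more (−0.21 ± 0.09, adjusted p = 0.399), and Fgf8, a growth factor needed for nephron formation, averaged 51.0 CPM without Six2 and 61.0 CPM with 2 or more (−0.27 ± 0.08, adjusted p = 0.0916, and 0.000406 without library 3). Wnt4 and Lhx1 are at 0 by the rule, which removes cells far along this path.

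Signalling lists other than these held few changes. Hes1, a Notch target, was higher, at 545, 516 and 463 CPM in cells without Six2 against 491, 458 and 387 CPM in cells with 2 or more Six2 UMIs (log2 fold change 0.19 ± 0.03, adjusted p = 0.000228), and was the 1 gene of 9 tested in the Notch list that passed. Against matched cells Hes1 was at 0.09 ± 0.03 (adjusted p = 0.754). Axin2, a target and inhibitor of Wnt signalling, was lower, at 9.87, 10.6 and 4.80 CPM in cells without Six2 against 13.5, 17.0 and 12.2 CPM in cells with 2 or more (−0.69 ± 0.16, adjusted p = 0.0194), the 1 gene of 8 tested in the Wnt list, and it did not pass against matched cells (−0.77 ± 0.18, adjusted p = 0.0917), without library 2 (0.106) or without library 3 (0.147). Of 16 tested genes of the fibroblast growth factor response, 0 passed by edgeR (0 at an unadjusted p under 0.05) or by DESeq2, and the median was −0.01.

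Among 23 immediate early and stress genes tested, 4 were higher and 3 lower, beside 0.35% higher and 1.57% lower over all genes tested. Btg2, an antiproliferative factor, averaged 282 CPM without Six2 and 237 CPM with 2 or more (log2 fold change 0.21 ± 0.05, adjusted p = 0.00836), and Btg1 and Junb were higher at 0.16 and 0.15, beside Klf2. Klf6 was lower at −0.73 and Hspa8 at −0.09, beside Hspa1a. Against matched cells Btg2 was at 0.03 ± 0.05, and it missed the threshold without library 2 (adjusted p = 0.138) or library 3 (0.202). Without library 3, 0 of the list were higher and 1, Hspa1a, lower. Of 84 ribosomal protein genes, 3 were higher (Rpl27a, Rps26 and Rpl15, at 0.08, 0.11 and 0.09), 82 had positive values and the median was 0.03; 0 passed without library 1 or without library 3. Reads of ribosomal protein genes can be shared with close copies. Of 19 glycolysis genes and 91 genes of oxidative phosphorylation tested, 0 passed by edgeR or DESeq2, with 1 and 4 at an unadjusted p under 0.05 and medians of 0.01 and 0.004.

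Set against the 1089 cells with exactly 1 Six2 UMI, which are closer in depth (median 15254 UMIs in cells without Six2 and 15549 in cells with 1), 7 of 10861 genes passed. Their names were taken from the values. Higher in cells without Six2 were Klf2 (1.03, adjusted p = 0.0332, with the endothelial cell included) and Cdkn1c, an inhibitor of the cell cycle (0.13, adjusted p = 0.0117). Lower were Top2a (−0.47, adjusted p = 0.00167), Rrm2 (−0.25, adjusted p = 0.0194), Cdca5 (−0.54), Hist1h2ap (−0.41) and 2810417H13Rik (−0.20). Id1 was at 0.25 ± 0.06 in this comparison (adjusted p = 0.242).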

How the data were processed

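Single-cell RNA was counted in 3 libraries of sorted cells. The authors deposited counts, whole numbers of UMIs per gene and cell, for 27998 genes in 1 joint sparse matrix; per the submitters' processing notes, Cell Ranger 1.3.1 and the mm10 build were used. The same series' text table was not used here. Library names come from the barcode suffix.

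UMIs were summed per library over the cells without Six2 and over those with 2 or more, and tested with edgeR 4.0.16 (quasi-likelihood, TMM scaling, filterByExpr, two-sided, Benjamini-Hochberg over all genes tested, threshold 0.05) in R 4.3.3, with the library as a block. The block is a true pairing, since both kinds of cell come from the same tube. The steps were tested on simulated counts with 1 fixed spread and no differences between libraries other than total UMIs. Of the changed genes, 50 of 87 were recovered at a log2 change of 0.5, 59 of 64 at 1 and 49 of 49 at 2. There were 3 false calls among 11693 genes. Smaller changes were not simulated, so a missing call does not show that a gene is unchanged. CPM values are sums over total UMIs. Random division, thinning and matching used Python 3.11.15 with fixed seeds. Fits with all cells thinned grouped the cells anew on thinned counts, which put cells with Six2 UMIs into the group without Six2. Thinned marker numbers and detection shares per cell kept the original groups. No doublet caller was applied; per the labels the sort left out doublets by size, and leaving out the 6% of cells with most UMIs is an alternative. Named genes are the 12 largest increases and 12 largest decreases among genes that passed, moved the same way in 3 of 3 libraries, and reached 10 CPM in either kind of cell, without genes of the rule, mitochondrial, ribosomal protein and haemoglobin genes, together with members of the lists; some of these genes are not reported here. The cells, lists and tests were chosen with earlier results of these data known. DESeq2 1.42.0 served as an alternative. Intervals and limits cover counting error only.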

Additional observations from a re-analysis of the deposited data

How the results depend on the processing

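Of the 24 named genes, 0 turned direction under any of the 19 alternatives that gave a value. Those genes had been chosen for a call and the same direction in 3 of 3 libraries, which favours this outcome. Against matched cells 2 of the 24 still passed, and with all cells thinned 4 did. Outside the 24, Rrm2 and Tyms turned direction when thinned with the 7 further genes judged before thinning. They moved from −0.36 and −0.25 to 0.21 and 0.15. Of the 39 genes called with all cells thinned, 9 were among the 225. Counts are given as genes called, higher and lower in cells without Six2, beside 225, 41 and 184. Without the library (replicate) block edgeR called 0, 0 and 0, with 356 at an unadjusted p under 0.05, and DESeq2 called 85, 7 and 78. Without a filter on low counts the counts were 356, 54 and 302. Leaving out 1 library gave 130 to 173, 16 to 25 and 114 to 148, lowest without library 1. They were 2, 1 and 1 against matched cells, and 39, 10 and 29 with all cells thinned. In 3 alternatives chosen after seeing the data they were 5, 2 and 3 with another draw of matched cells, 29, 12 and 17 thinned with the 7 further genes judged before thinning, and, without cells holding division transcripts, 1, 0 and 1, the gene being Crym (−0.32), with 414 at an unadjusted p under 0.05. Against cells with 1 Six2 UMI the counts were 7, 2 and 5, without a minimum of UMIs 782, 295 and 487, and from 16000 UMIs 74, 11 and 63. They were 137, 28 and 109 without A and T rich barcodes, 145, 25 and 120 without the 6% of cells with most UMIs, and 296, 94 and 202 in the reading part. The cause of these moves was not tested. Six2 in the reading part stood at −0.42 without the block, no longer past the threshold (adjusted p = 0.999998), and at −0.44 to −0.39 leaving out 1 library. The share without Six2 was 21.9% thinned, 17.3% without a minimum and 9.87% from 16000 UMIs, and 12.1% to 14.9% leaving out 1 library. The difference in progenitor markers per cell was −0.17 thinned. Depth per cell limits every statement on absence of Six2, and 3 tubes limit every test.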
